A study of Mus musculus with 12 samples.

Results

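The genes described here encode 10 proteins of the growth cone and of axon outgrowth: Gap43, Basp1, Marcks, Marcksl1, Sprr1a, Crmp1, Dpysl2, Dpysl3, Cap1 and Chl1. They were chosen by symbol, each matched 1 Ensembl gene ID of the deposited table, and together they are 10 of its 14675 gene IDs. All 10 passed the filter on low counts, which left 8085 genes. RNA was measured in adult mouse dorsal root ganglion (DRG) neurons of genotype RPL22HA+/+;Advillin-Cre+, in which the ribosomal protein RPL22 carries an HA tag in cells that express Cre under the sensory neuron gene Advillin. An anti-HA antibody can thus pull down the ribosomes of those cells with the mRNA they carry, a method known as RiboTag. The 4 groups, with 3 deposited columns each, were IP (the pull-down) after AAV-shGpr151 and AAV-e5'UTR, IP after AAV-shGpr151, input (total RNA) after AAV-shGpr151 and AAV-e5'UTR, and input after AAV-shGpr151. They are called IP with e5UTR, IP shGpr151, input with e5UTR and input shGpr151. Every group thus received the hairpin against Gpr151, an orphan receptor, and the identity of the e5'UTR insert was not stated. The series' design text describes cultured neurons from animals with an earlier (preconditioning) lesion of the sciatic nerve. The extraction protocol describes ganglia collected fresh instead.

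A growth cone is the motile tip of a growing axon, where membrane, actin and microtubules are added and steered. GAP-43, BASP1 and the MARCKS proteins are acylated proteins on the inner face of its membrane, are substrates of protein kinase C, and bind calmodulin or acidic lipids. Collapsin response mediator proteins (CRMPs, encoded by Crmp1 and the Dpysl genes) bind tubulin and pass on guidance signals, CAP1 recycles actin subunits together with cofilin, and CHL1 is an adhesion molecule of the L1 family. SPRR1A is a small proline-rich protein of keratinized epithelia. In adult sensory neurons Gap43 and Sprr1a are among the best known genes induced by axotomy.

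Column totals ran from 1381220 to 1517685 estimated counts in IP and from 975403 to 985277 in input. The 3 columns of a group differed by little more than counting noise. Their totals lay within 0.201% of each other in every group, and the median gene's chi-square between columns was between 1.08 and 1.12 times the value that counting alone gives. The 3 columns were therefore counted as 1 sample, called a pool, and nothing in the labels says that they came from separate animals or cultures. Levels are given as CPM, counts relative to a common library size, after scaling by the trimmed mean of M-values (TMM). IP is set against input over 2 pools per fraction, 1 of each treatment. No fraction had a replicate pool within a treatment, so p-values from the pools do not measure the spread between animals or cultures. The e5UTR differences have 1 pool on each side and no replicate check, so their tests on the columns compare these libraries, not the conditions. Gpr151 was present in every group, with 128, 108, 29 and 35 counts in IP with e5UTR, IP shGpr151, input with e5UTR and input shGpr151. No group without the hairpin was analysed here, so these counts do not check the knockdown.

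Setting IP against input asked how the level of each mRNA in the pull-down compared with its level in total RNA. Of the 10 genes 8 were higher in IP, 1 (Dpysl2) was lower and 1 (Chl1) did not pass the test, with a median log2 ratio of 0.86 against 0.06 over all genes tested (edgeR's quasi-likelihood test on the 4 pools with treatment as a term, Benjamini-Hochberg adjusted p under 0.05). Over all 8085 genes 33.7% were called higher and 36.3% lower, 70.0% in all. The 10 genes held 0.159% of the counts in IP with e5UTR and 0.159% in IP shGpr151, against 0.0514% in input with e5UTR and 0.0528% in input shGpr151. For 7 genes every IP column lay above every input column, which held for 24.1% of all genes tested, and for Dpysl2 every IP column lay below, which held for 31.0%. Scaling by library total instead of TMM raised the median log2 ratio of all genes by 0.93, and 9 of the 10 genes were then higher and 0 lower. Of all 8085 genes 5049 were called higher and 1916 lower under that scaling. The sign of a small ratio thus depends on the scaling, while the order of the genes hardly does.

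**Figure D1:**
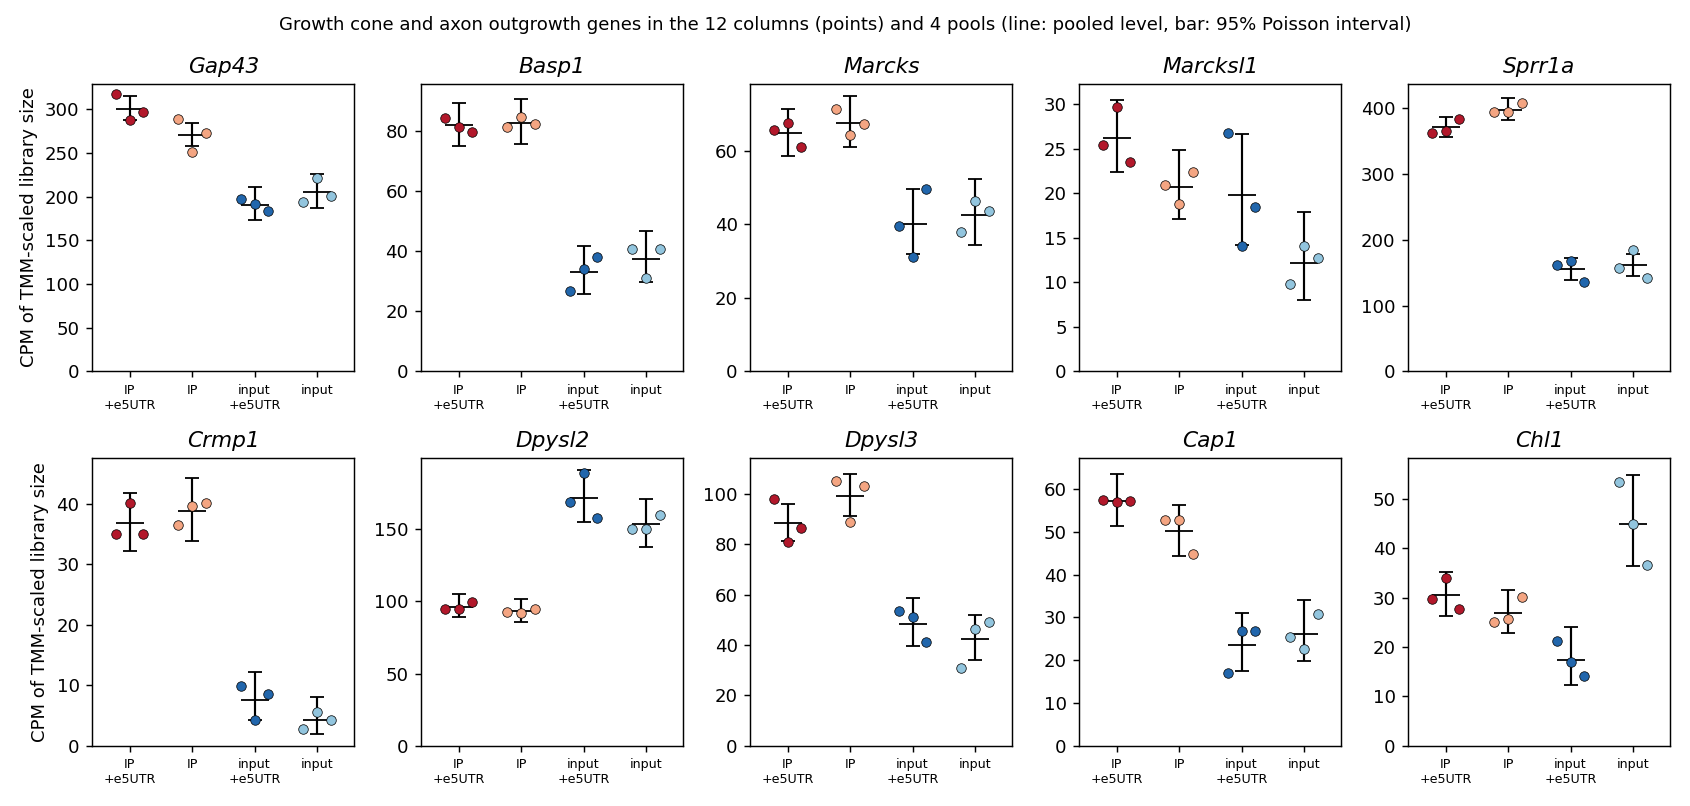
Level of each gene (y axis, CPM of the TMM-scaled library size, from 0) in the 12 deposited columns (points) of the 4 groups (x axis, +e5UTR marks AAV-shGpr151 with AAV-e5'UTR, no mark AAV-shGpr151 alone). The horizontal line is the pooled level and the bar its exact Poisson 95% interval. On this TMM scale all IP points lie above all input points in 7 panels, and Dpysl2 runs the other way. Chl1 has its highest points on this scale, 36.6 to 53.4 CPM, in input shGpr151.

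Among the membrane proteins, Gap43 was 1.44-fold higher in IP. Its columns held 318, 288 and 297 CPM in IP with e5UTR and 289, 251 and 273 CPM in IP shGpr151, against 198, 192 and 184 CPM in input with e5UTR and 194, 222 and 201 CPM in input shGpr151. The fractions did not overlap, but the gap was small (log2 0.53 ± 0.15 SE, adjusted p = 0.00093, edgeR). Basp1, whose product binds the same membrane lipids as GAP-43, was 2.34-fold higher (log2 1.22 ± 0.18, adjusted p = 5.8e-11, edgeR). It stood at 84.4, 81.4 and 79.7 CPM in IP with e5UTR and 81.4, 84.5 and 82.4 CPM in IP shGpr151, against 26.8, 33.9 and 38.2 CPM in input with e5UTR and 40.7, 30.9 and 40.8 CPM in input shGpr151. The 6 IP columns of Basp1 were thus close to each other and each lay above 79 CPM, while no input column reached 41 CPM.

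The MARCKS pair had ratios between those of Gap43 and Basp1. Marcks, which holds phosphoinositides at the membrane, was 1.60-fold higher in IP (log2 0.68 ± 0.18, adjusted p = 0.00036, edgeR), with columns from 60.9 to 71.4 CPM in IP and from 31.1 to 49.5 CPM in input. Marcksl1, its smaller relative, had 25.4, 29.7 and 23.5 CPM in IP with e5UTR and 20.9, 18.8 and 22.4 CPM in IP shGpr151, against 26.8, 14.1 and 18.4 CPM in input with e5UTR and 9.84, 14.1 and 12.7 CPM in input shGpr151. The fractions of Marcksl1 overlapped, and its call (log2 0.56 ± 0.25, adjusted p = 0.036) ended with another scaling, another tool, or without any 1 of 5 columns (adjusted p = 0.05 to 0.32, log2 0.49 to 0.56). With DESeq2 the call of Marcks ended too (log2 0.66, adjusted p = 0.06). RefSeq lists 5 pseudogenes of Marcksl1. No source at hand states how reads were divided among near-identical copies, so the level of Marcksl1 is uncertain.

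Sprr1a was 2.43-fold higher in IP (log2 1.28 ± 0.15, adjusted p = 5.2e-16, edgeR). Its columns held 363, 366 and 383 CPM in IP with e5UTR and 394, 394 and 408 CPM in IP shGpr151, against 162, 168 and 136 CPM in input with e5UTR and 157, 184 and 142 CPM in input shGpr151. The lowest IP column was thus far above the highest input column. Sprr1a and Gap43 together made up 58.2% and 58.3% of the counts of the 10 genes in IP with e5UTR and IP shGpr151, against 48.9% and 50.2% in input with e5UTR and input shGpr151. The ratio of Sprr1a to Gap43 counts, which needs no scaling between libraries, was higher in IP than in input by 1.51 (95% interval 1.29 to 1.78) with e5UTR and by 1.87 (1.6 to 2.2) with shGpr151 alone, given as odds ratios of the pooled counts with exact intervals. These 2 injury-induced mRNAs therefore differed in their IP to input ratio by more than counting error in each treatment.

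The CRMP genes were spread over the widest range. Crmp1 had the highest ratio of the 10 genes, 6.41-fold (log2 2.68 ± 0.29, adjusted p = 7.7e-19, edgeR), and stood at percentile 98.4 of all genes tested. It had 73, 84 and 73 counts in IP with e5UTR and 70, 76 and 77 counts in IP shGpr151, against 7, 3 and 6 counts in input with e5UTR and 2, 4 and 3 counts in input shGpr151. All input columns were near the bottom of what the depth resolves, so the size of the ratio is loosely fixed: it was 4.88 (95% interval 2.94 to 8.68) with e5UTR and 9.19 (4.76 to 20.4) with shGpr151 alone. Dpysl3, which encodes CRMP4, was 2.06-fold higher in IP (log2 1.05 ± 0.17, adjusted p = 3.8e-09), with columns from 81 to 105 CPM in IP and from 30.9 to 53.6 CPM in input.

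Dpysl2, which encodes CRMP2, the member best known for binding tubulin dimers, went the other way. Its columns held 94.9, 94.9 and 99.8 CPM in IP with e5UTR and 92.8, 92.3 and 94.9 CPM in IP shGpr151, against 169, 189 and 158 CPM in input with e5UTR and 150, 150 and 160 CPM in input shGpr151. All 6 IP columns lay below all 6 input columns (log2 -0.78 ± 0.15, adjusted p = 1.1e-06, edgeR). By library total the sign turned (log2 0.15, adjusted p = 0.33), and with upper-quartile scaling the call ended (log2 -0.30, adjusted p = 0.068). The gap to its relatives did not depend on scaling. The ratio of Crmp1 to Dpysl2 counts was higher in IP than in input by an odds ratio of 8.7 (95% interval 5.14 to 15.7) with e5UTR and 15.1 (7.67 to 34) with shGpr151 alone, and that of Dpysl3 to Dpysl2 by 3.25 (2.53 to 4.21) and 3.87 (2.96 to 5.08). Dpysl5, which encodes CRMP5, lay with Crmp1, at 6.11-fold (log2 2.61 ± 0.32, adjusted p = 9.1e-16) and 170 and 159 counts in the IP pools against 9 and 10 in the input pools. Dpysl4 had 11 and 8 counts in IP and 2 and 0 in input and was not tested.

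Cap1 was 2.15-fold higher in IP (log2 1.10 ± 0.21, adjusted p = 2.4e-07, edgeR). It stood at 57.5, 57 and 57.1 CPM in IP with e5UTR and 52.7, 52.7 and 44.8 CPM in IP shGpr151, against 16.9, 26.8 and 26.9 CPM in input with e5UTR and 25.3, 22.5 and 30.9 CPM in input shGpr151. The IP columns of Cap1 did not overlap with the input columns. Cap1 and the lysosomal enzyme gene Ppt1 overlap in the RefSeq annotation, and Ppt1 held 128 and 92 counts in IP against 53 and 45 in input. Pnma2 overlaps Dpysl2 and Evc overlaps Crmp1 in the same annotation, with at most 52 and 7 counts in any pool, far below the counts of Dpysl2 and, in IP, of Crmp1. In input, Evc had 6 and 3 counts where Crmp1 had 16 and 9. No source at hand states whether the counting used strand.

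Averaged over the treatments, Chl1 did not pass the test (log2 -0.05 ± 0.22, adjusted p = 0.85, edgeR, and log2 0.88, adjusted p = 0.00012 by library total). The average joined unlike ratios, since Chl1 in IP over input was 1.75 (95% interval 1.23 to 2.56) with e5UTR and 0.599 (0.461 to 0.781) with shGpr151 alone. Each of the other 9 genes lay on the same side of 1 in both treatments. That Chl1 crossed 1 depends on the scaling. By library total its ratios were 3.32 (2.33 to 4.86) with e5UTR and 1.15 (0.886 to 1.5) with shGpr151 alone.

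**Figure D2:**
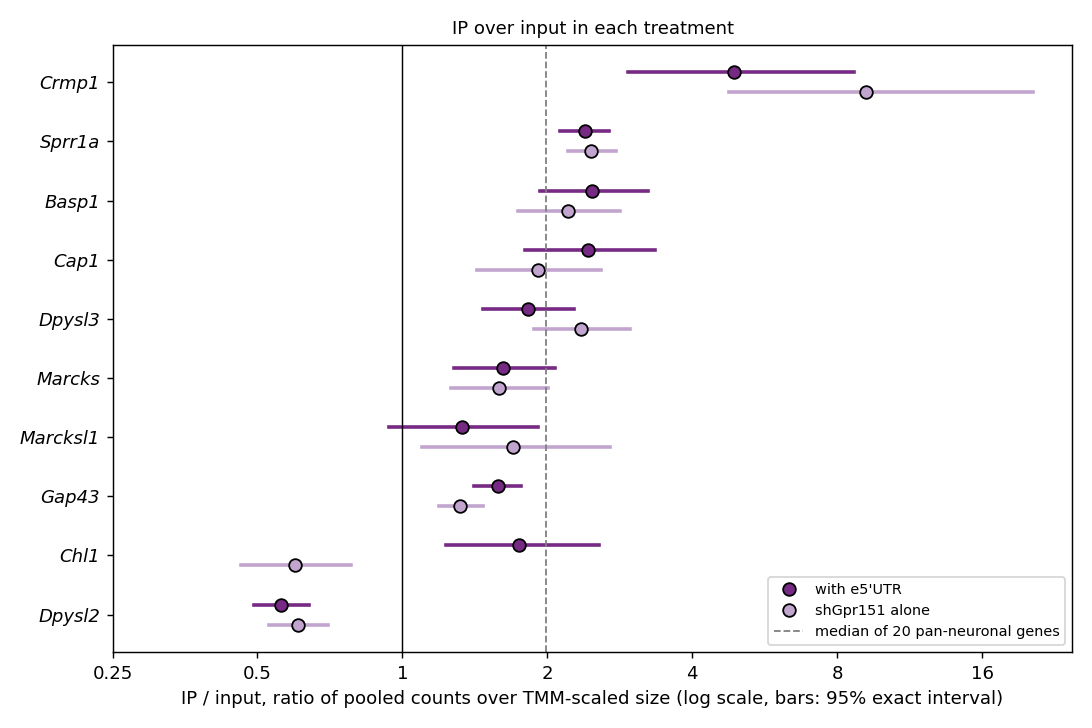
Ratio of IP to input (x axis, log scale, pooled counts over the TMM-scaled library size) for each gene (y axis, sorted by the edgeR log2 ratio), with e5UTR (dark, upper) and with shGpr151 alone (light, lower). Bars are exact binomial 95% intervals for counting error only, and the dashed line marks the median of 20 pan-neuronal genes. Crmp1 stands apart on the right. Under this scaling, though not by library total, Dpysl2 lies below 1 in both treatments and only Chl1 has its 2 points on opposite sides of 1.

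Most neuronal markers were higher in IP, and the summed markers of each other cell type were lower, except that the endothelial and mural sum was higher when scaled by library total. Of 20 pan-neuronal genes 13 were higher in IP and 2 lower (median log2 0.99), and their summed level was 10500 and 10000 CPM in IP against 5380 and 5390 CPM in input, with none at 0. Set beside that median, Dpysl2 stood at -1.77, Chl1 at -1.04, Gap43 at -0.46, Marcksl1 at -0.42 and Marcks at -0.31 on the log2 scale. The other 5 genes lay above it, from 0.06 for Dpysl3 to 1.69 for Crmp1. Summed over columns, 10 satellite glia markers ran from 904 to 1030 CPM in IP and from 2730 to 2890 CPM in input, and 10 Schwann cell markers from 456 to 508 CPM in IP and from 1130 to 1190 CPM in input. For 9 fibroblast markers the ranges were 356 to 494 CPM in IP and 1670 to 1780 CPM in input, for 11 macrophage and immune markers 90.8 to 120 CPM and 215 to 272 CPM, and for 5 erythroid markers 1.57 to 4.32 CPM and 2280 to 2390 CPM. For 8 endothelial and mural markers they were 58.9 to 95 CPM in IP and 113 to 145 CPM in input, with 1 marker at 0 in IP with e5UTR. The myelination gene Ncmap was at 0 in both IP pools and was the sole Schwann cell marker at 0, while every satellite glia, fibroblast and macrophage marker in the table had counts in every pool. Of the 5 erythroid markers 2 were at 0 in IP with e5UTR and 3 in IP shGpr151. Single markers were mixed: of those tested, 6 of 9 satellite glia, 7 of 9 Schwann cell, 6 of 8 fibroblast, 6 of 8 macrophage, 1 of 3 endothelial and mural and 4 of 4 erythroid genes were lower. Glul, which encodes glutamine synthetase, was the sole one called higher (3.82-fold, adjusted p = 5.3e-25, edgeR). By library total 3 satellite glia, 2 Schwann cell, 2 fibroblast, 2 macrophage and 2 endothelial and mural markers were higher, as were 5049 of all 8085 genes. The part of RNA from other cells in the ratios of the 10 genes was not tested. Input holds RNA of many cell types, so that fewer cells of a type and less RNA per cell cannot be told apart in it.

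Partners of these proteins were counted in 5 lists, again beside a background of 70.0% called. That share holds for TMM, while by library total 5049 of all 8085 genes were called higher and 1916 lower. By that scaling the genes higher were 12 of 12 in the CRMP list, 12 of 13 in the L1 list and 14 of 14 in the cofilin list. They were 8 of 13 in the protein kinase C and calmodulin list and 21 of 27 in the last list, which also held 3 lower, the others none. In the list of CRMP relatives and semaphorin signalling 9 of 12 tested genes were higher in IP and 0 lower (median log2 0.97). Klc1, a kinesin light chain, was 2.88-fold higher (log2 1.53 ± 0.16), next to Dpysl5. In the L1 family and axonal adhesion list 8 of 13 were higher and 1 lower (median 0.94). L1cam, the founding member of the family of CHL1, was 3.65-fold higher (log2 1.87 ± 0.24) and Ezr, the membrane to actin linker ezrin, 3.48-fold (1.80 ± 0.27), while Ank3, which encodes ankyrin-G of the axon initial segment, was lower (-1.25 ± 0.18). In the cofilin and actin monomer list 7 of 14 were higher and 0 lower (median 0.35). Among its genes with at least 300 counts the cofilin kinase gene Limk2, at 2.54-fold (1.34 ± 0.26), and the cofilin cofactor gene Wdr1, at 2.45-fold (1.29 ± 0.21), were highest. Twf2, a twinfilin gene with 166 counts, was at 4.94-fold and is named after its value was seen.

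The list of protein kinase C and calmodulin partners was divided, with 3 genes higher and 4 lower of 13 (median log2 -0.02). Camk2d and Ppp3r1, for a calmodulin-dependent kinase and the regulatory subunit of calcineurin, were 1.70-fold and 1.47-fold higher (log2 0.76 ± 0.24 and 0.56 ± 0.23). The calmodulin gene Calm2 was lower (-0.99 ± 0.15), while Calm3, another calmodulin gene, was called higher (0.51 ± 0.15). Calm3 is named after its value was seen. Among 27 other genes of growth cones and axon outgrowth 15 were higher and 6 lower (median 0.46). Dbn1, the actin-binding drebrin of the growth cone, was 4.51-fold higher (2.17 ± 0.25) and Tubb3, neuronal beta-tubulin, 3.56-fold (1.83 ± 0.15), whereas Enah, an actin polymerase, and Gpm6b, a proteolipid of neurons and glia, stood at -3.55 ± 0.16 and -2.91 ± 0.20. Higher and lower genes of that list thus lay further apart than the 10 genes themselves.

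**Figure D3:**
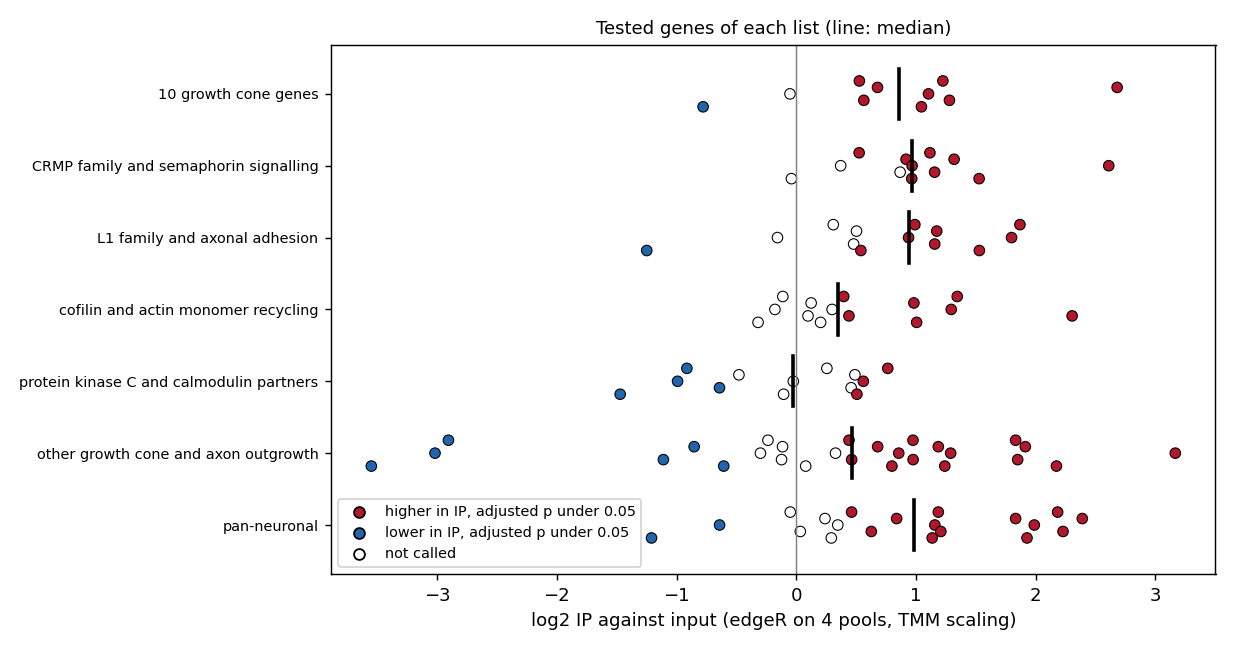
Log2 ratio of IP to input (x axis, edgeR on 4 pools) of every tested gene in the list of 10 genes, in 5 lists of partners and in the pan-neuronal list (y axis). Each point is a gene, filled red or blue where the adjusted p was under 0.05, and the vertical line is the list's median. The medians of the 10 genes (0.86), the CRMP list (0.97), the L1 list (0.94) and the pan-neuronal list (0.99) lie close together, and that of the protein kinase C and calmodulin list is at -0.02.

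The comparison of e5UTR with shGpr151 alone in IP asked whether the mRNAs on tagged ribosomes differed once AAV-e5'UTR was added. Of the 10 genes 0 passed edgeR's test on the columns, where 11.0% of all 8085 genes did (4.71% higher and 6.25% lower). By the unadjusted p, 1 of the 10 (Gap43) was under 0.05, and so were 1841 of all 8085 genes. Ratios of pooled counts ran from 0.892 for Dpysl3 (95% interval 0.792 to 1) to 1.27 for Marcksl1 (0.995 to 1.62). Gap43 was at 1.11 (1.04 to 1.19, log2 0.15 ± 0.06, adjusted p = 0.081), and passed under upper-quartile scaling alone (adjusted p = 0.044). Sprr1a was at 0.931 (0.878 to 0.986, log2 -0.10 ± 0.05, adjusted p = 0.24). It was called lower with RLE size factors (log2 -0.17, adjusted p = 0.024) and without any 1 of 5 IP columns (log2 -0.18 to -0.21, adjusted p = 0.014 to 0.044), settings that moved the median gene by -0.07 to -0.10. For each of the 10 genes a 2-fold change in IP lay outside the counting interval. Summed fibroblast markers were at 461 CPM in IP with e5UTR and 367 CPM in IP shGpr151, and satellite glia markers at 1000 and 917 CPM. Endothelial and mural markers were at 87.3 and 72 CPM, and pan-neuronal markers at 10500 and 10000 CPM. Columns, counted as 1 pool per group, did not overlap in these lists, though the share of all genes without overlap was not computed. They overlapped for macrophage and immune markers (112 and 96.3 CPM), erythroid markers (3.04 and 2.26 CPM) and Schwann cell markers, which were lower with e5UTR (468 and 493 CPM). The part of other cells in these ratios was not tested. The marker sums were scaled by TMM. RLE size factors moved the median gene by -0.073, so a gap as small as the pan-neuronal one may depend on the scaling.

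Whatever the scaling, Sprr1a and Gap43 moved apart in IP. Their ratio of counts was 1.14, 1.27 and 1.29 in the columns of IP with e5UTR and 1.36, 1.57 and 1.49 in those of IP shGpr151, which do not overlap. The odds ratio was 0.839 (95% interval 0.767 to 0.917). In input the same ratio was 0.821, 0.875 and 0.738 with e5UTR and 0.812, 0.829 and 0.706 with shGpr151 alone, an odds ratio of 1.04 (0.843 to 1.28). The pair was singled out after its values were seen, and the intervals cover counting error only.

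**Figure D4:**
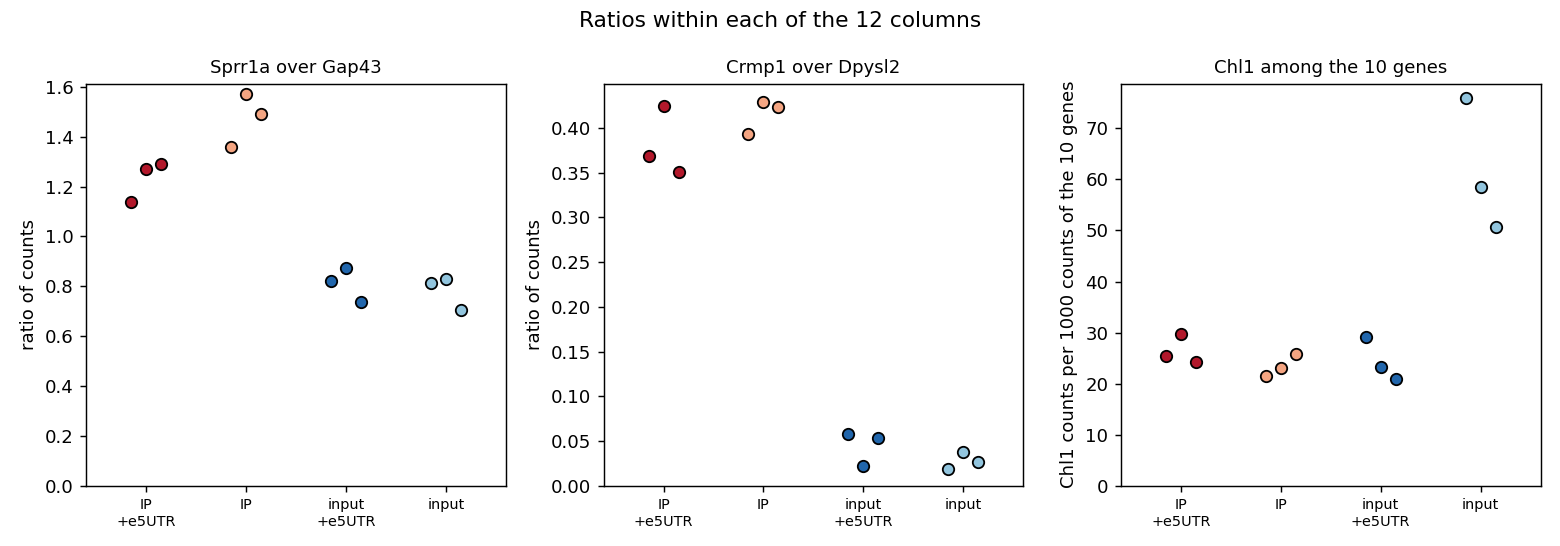
Ratios of counts within each of the 12 deposited columns (points), which need no scaling between libraries, in the 4 groups (x axis, +e5UTR marks AAV-shGpr151 with AAV-e5'UTR). Left, Sprr1a over Gap43, at 1.14 to 1.29 in IP with e5UTR and 1.36 to 1.57 in IP shGpr151. Middle, Crmp1 over Dpysl2, at most 0.0583 in input. Right, Chl1 counts per 1000 counts of the 10 genes, at 50.7 to 76 in input shGpr151 and at most 29.8 in the other 9 columns.

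In input the same comparison called 1 of the 10 genes, Chl1, where 0.198% of all genes tested were called (0.0124% higher and 0.186% lower). Chl1 had 15, 12 and 10 counts in input with e5UTR against 38, 32 and 26 counts in input shGpr151, with no overlap. The ratio was 0.387 (95% interval 0.258 to 0.571, log2 -1.36 ± 0.24, adjusted p = 0.0057, edgeR), at percentile 1.15 of all genes tested. The call ended when column 1 of the input shGpr151 pool was left out, and likewise for column 3 of the pool with e5UTR (log2 -1.23 in each, adjusted p = 0.082 and 0.071). The fall did not rest on the scaling, since the odds of a Chl1 count among the counts of the 10 genes fell by an odds ratio of 0.384 (0.254 to 0.571).

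The other 9 genes gave log2 differences in input from -0.19 for Basp1 to 0.82 for Crmp1, with adjusted p from 0.97 to 0.99. Intervals were wide for the least counted genes, with ratios of 1.79 (0.743 to 4.59) for Crmp1 and 1.62 (0.972 to 2.76) for Marcksl1, and both intervals contain a 2-fold rise. Marcksl1 had an unadjusted p of 0.049 by edgeR's test on the columns, where 394 of all 8085 genes were under 0.05. Intervals were narrow for the most counted genes, with 0.929 (0.81 to 1.07) for Gap43, 0.964 (0.826 to 1.12) for Sprr1a and 1.12 (0.963 to 1.31) for Dpysl2. In none of the 5 partner lists was a gene called in input.

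**Figure D5:**
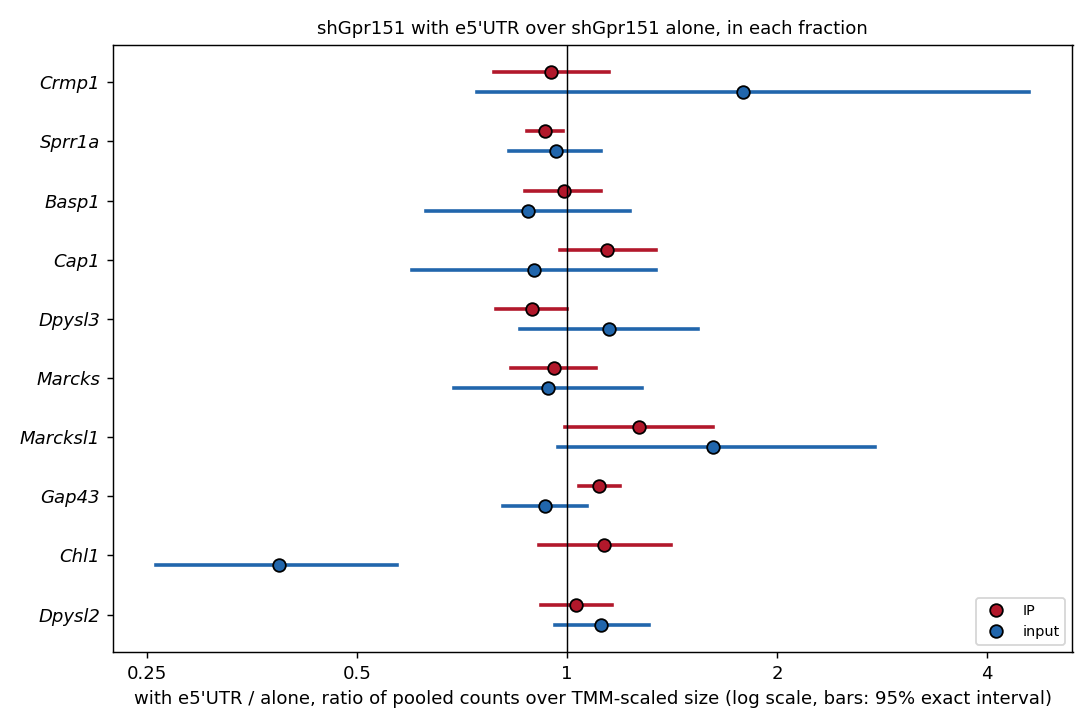
Ratio of shGpr151 with e5UTR to shGpr151 alone (x axis, log scale, pooled counts over the TMM-scaled library size) for each gene (y axis), in IP (red, upper) and in input (blue, lower). Bars are exact binomial 95% intervals for counting error only. Chl1 in input lies alone at 0.387, while in IP the ratios run from 0.892 to 1.27.

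Whether the e5UTR difference was the same in both fractions was tested as an interaction on the columns. Of the 10 genes 1 was called, again Chl1 (log2 1.55 ± 0.29, adjusted p = 0.00092, edgeR), beside 5.11% of all genes tested (1.57% higher and 3.54% lower). In IP Chl1 had 62, 71 and 58 counts with e5UTR against 48, 49 and 58 counts with shGpr151 alone, a ratio of 1.13 (95% interval 0.912 to 1.41). Under TMM scaling the highest pool of Chl1 was input shGpr151 at 45 CPM (36.4 to 54.9). Next came IP with e5UTR at 30.5 (26.3 to 35.2) and IP shGpr151 at 26.9 (22.9 to 31.5). Input with e5UTR was lowest, at 17.4 (12.3 to 24). Only the 2 IP pools had intervals that overlapped broadly, while those of IP shGpr151 and input with e5UTR met between 22.9 and 24 CPM. By library total the order across fractions changed, with IP shGpr151 over input shGpr151 at 1.15 (0.886 to 1.5). RefSeq places a pseudogene, an snRNA and 2 long noncoding RNA genes within the span of Chl1, and no row of the table bore their symbols. Interaction values of the other 9 genes ran from -0.89 for Crmp1 to 0.35 for Cap1, with adjusted p of at least 0.24. Gap43 had the lowest of these (log2 0.26 ± 0.11, adjusted p = 0.24).

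Among partners, 7 genes were called higher with e5UTR in IP and 2 lower, together 9 of 79 tested (11.4%), a share close to the 11.0% of all genes tested. These, a full account of the calls and so named after their values were seen, were the calmodulin gene Calm2 (log2 0.14) and the calmodulin-binding Pcp4 (0.19), the actin gene Actg1 (0.86), the profilin gene Pfn1 (0.19) and the thymosin gene Tmsb4x (0.11), and the stathmin genes Stmn1 (0.17) and Stmn2 (0.14), against the LIM kinase gene Limk1 (-0.69) and Enah (-0.30). All but Actg1 and Limk1 were changes of less than 0.31 on the log2 scale. RLE size factors moved the median gene of this comparison by -0.073. Over all genes 381 were called higher, but only 86 to 108 with any 1 IP column left out.

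As a description of likeness, every gene with at least 1000 counts over the columns was ranked by the Euclidean distance between log2 CPM of the 4 pools, each centred on its mean. For Crmp1 the nearest of 1644 genes were the asparagine synthetase gene Asns and Nacad (distances 0.229 and 0.245), for Dpysl2 Ldhb, a lactate dehydrogenase subunit, and Lamtor1, a lysosomal signalling adaptor (0.0692 and 0.078), and for Gap43 Rpl36al and the kinesin gene Kif5b (0.0266 and 0.0389). For Chl1 the nearest were Txnl4a and Hnrnpa3, at distances of 0.752 and 0.753, so that no ranked gene had the centred pattern of Chl1 within a distance of 0.7. Chl1 itself had 479 counts over the columns, and other genes of its depth were not ranked.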

How the data were processed

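The values were the authors' deposited expected counts per Ensembl gene ID, written as whole numbers, in 1 table of 14675 genes and 12 columns, each matched to 1 sample by name. Per the labels' protocols, libraries were prepared by cDNA-PCR with barcodes (the kit named is one for nanopore sequencing). Minimap2, Salmon, GRCm39 and mm39 appear without roles in the submitters' processing notes. Settings and filters of the counting: not given in the sources used here. Symbols came from a table of gene IDs (89.9% matched). Gene coordinates available here were of another build and are not printed.

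The 3 columns of a group were summed to a pool. IP against input was tested with edgeR 4.0.16 (R 4.3.3, TMM, quasi-likelihood) on 4 pools with treatment as a term, the e5UTR differences and the interaction on 12 columns. filterByExpr (minimum count 10, minimum total 15) left 8085 genes, and p-values were adjusted over all of these by Benjamini-Hochberg (threshold 0.05). The SE is the log2 ratio divided by the root of F. Fits were tried on simulated data in which few genes changed, as many up as down, so the choice of scaling was not tested there. Ratios have exact binomial and levels exact Poisson 95% intervals. PCR reads without molecular identifiers are not independent molecules, so intervals cover counting error only. P-values on columns measure only the spread between columns, which may be technical.

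Replicate numbers did not pair the columns. Alternatives were DESeq2 1.42.0, limma-voom 3.58.1, RLE, upper-quartile and library-total scaling, other filters, a replicate block and leaving out each column. Of each partner list, up to 2 highest and 2 lowest called genes with at least 300 counts are named, except 1 that is not reported here. The 10 genes, the lists and the tests were chosen with earlier results of these data known.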

Additional observations from a re-analysis of the deposited data

Results flagged for a closer look

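Chl1 gave an e5UTR difference in IP unlike that in input, with an interaction of log2 1.55 ± 0.29 (adjusted p = 0.00092, edgeR's quasi-likelihood test on the 12 columns), and it was the sole gene of the 10 for which this held. In IP it had 191 counts with e5UTR and 155 with shGpr151 alone, and in input 37 counts with e5UTR and 96 with shGpr151 alone. The test compares 4 pools of reads, without a replicate of either treatment. The call held in all 19 alternatives that gave an adjusted p (log2 1.37 to 1.72, adjusted p = 0.00085 to 0.0068).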

How the results depend on the processing

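Under 21 alternatives for IP against input, 6 genes (Basp1, Cap1, Crmp1, Dpysl3, Gap43 and Sprr1a) stayed called higher. Counts of all genes, given as higher and lower, were 2724 and 2932, and 5049 and 1916 by library total, with 1398 higher by DESeq2. Of the 10 genes 0 were lower by library total and by upper quartile, where 1916 and 2306 of all genes were lower. Dpysl2 turned to 0.1543 by library total. Chl1, not called in the main test, turned to 0.8809 by library total, 0.4261 by upper quartile, 0.06685 without a filter, 0.07333 with the replicate block, 0.07235 with 12 columns as samples and -0.1474 to 0.08427 with columns left out.

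For e5UTR in IP, 381 genes were called higher and 505 lower, with 713 lower by RLE. Those higher numbered 381, against 184 with RLE and 88 with DESeq2. They were 86 to 108 with any 1 IP column left out and 382 to 388 with any 1 input column left out. Of the 10 genes, 1 was lower with RLE, 1 higher with upper quartile, and 0 to 1 lower with columns left out. Dpysl2 (-0.02003 with RLE, -0.02006 with DESeq2, -0.06185 to 0.05333 with columns left out) and Basp1 (0.008634 with upper quartile) changed sign without being called. In input 1 gene was higher, against 2 without a filter, 0 with DESeq2 or limma-voom and 0 to 3 with columns left out, where the 10 genes held 0 to 1 lower. Signs turned there for Cap1 (-0.2628 to 0.02984), Marcks (-0.2669 to 0.05878) and Sprr1a (-0.1314 to 0.05176). For the interaction 127 genes were higher, against 56 with RLE and 38 with DESeq2. They were 35 to 44 with any 1 IP column left out and 102 to 117 with any 1 input column left out. Marcks (-0.03477 with RLE, -0.03465 with DESeq2, -0.1169 to 0.2088 with columns left out) and Sprr1a (-0.1578 to 0.03266) changed sign without being called. DESeq2 gave no adjusted p in the interaction for Chl1 (log2 1.49), Crmp1 and Marcksl1, so the 10 genes were not counted there. The causes were not tested.

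Same-numbered columns deviated together with correlations from -0.352 to 0.185, so the numbers were not taken as pairs, and the replicate block changed no call of the 10 genes. Depth limits Crmp1 and Marcksl1 in input most, with 9 to 42 counts per pool. Chl1 in input with e5UTR, with 37 counts, lay within that range.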

Other observations

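Sprr2i, another small proline-rich gene, was noticed after its values were seen. It had 53 and 48 counts in IP with e5UTR and IP shGpr151, against 1 and 1 in input with e5UTR and input shGpr151. Gprin1, which encodes a G protein-regulated inducer of neurite outgrowth, was 8.98-fold higher in IP (log2 3.17 ± 0.60, adjusted p = 3.6e-07, edgeR on 4 pools), with 7.99 and 9.39 CPM in IP against 0.942 and 0.937 CPM in input. Nrn1, which encodes the neurite-promoting surface protein neuritin, stood at log2 -3.02 ± 0.25, with 7.35 and 5.39 CPM in IP against 49 and 54.8 CPM in input.

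Actg1, the gene for cytoplasmic gamma-actin, was at 359 CPM in IP with e5UTR and 198 CPM in IP shGpr151, against 241 CPM in input with e5UTR and 224 CPM in input shGpr151. Its difference with e5UTR in IP was log2 0.86 (adjusted p = 6.6e-10, edgeR on 12 columns), whereas that of Actb, for beta-actin, was -0.05 (adjusted p = 0.37). Both actin transcripts are alike in their coding parts, and no source at hand states how shared reads were divided. Actg1 was also singled out after its values were seen, as were Gprin1 and Nrn1.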
